A study of Mus musculus with 3 samples.

Results

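The keratins are the intermediate filament proteins of epithelial cells, and the 48 keratin genes measured here were those of 18193 genes with a symbol of the form Krt followed by a number and an optional letter. They were represented by 61 of 45037 probe sets, each annotated to exactly 1 gene symbol, and keratin-associated proteins were left out of the count. Keratins work in pairs, since a filament forms only from a type II and a type I protein together. The pair in use reports the state of an epithelium: Krt8 and Krt18 mark simple epithelia, Krt5 and Krt14 the dividing basal layer of stratified epithelia, and Krt1 and Krt10 the cells that have left that layer. A further set of keratins is made in hair follicles, nails and other appendages.

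Tissue came from the genital tubercle, from which the penis grows in males and the clitoris in females. Each of the 3 mouse embryos carries a male label and was taken on embryonic day 14, at Theiler stage 22. FVB/N females had been mated to males carrying the SMAA/EYFP transgene, a yellow fluorescent protein reporter named for smooth muscle actin (Acta2), and all 3 embryos are labelled transgenic. The tubercle region was dissected by that fluorescence, so epithelium and mesenchyme were collected together, and no embryos were pooled. The samples form 1 group without a control and differ in 1 label, the developmental landmark, which is individual visible fingers in replicate 3 and an indented footplate border in replicates 1 and 2. Total RNA was amplified in 2 rounds and hybridised to 1 array per embryo.

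A gene's level is given as the deposited signal of its brightest probe set, in arbitrary array units. Background was set per sample from 81 probe sets for receptors of smell, pheromones and bitter taste, as the signal that 95% of them stayed under, at 197.5 in replicate 3, 135.8 in replicate 1 and 253.1 in replicate 2. Replicate 3 goes against its male label: Xist, which silences 1 X chromosome in female cells, read 61883 there against 8.05 and 118 in replicates 1 and 2, and the Y-linked genes Eif2s3y, Uty and Kdm5d read 37.9, 45.3 and 37.1, all below background. Every comparison by landmark rests on this library, and landmark and sex cannot be told apart in it. The labels do not say which embryos were littermates or were processed together, and 3 arrays limit the precision of every value. The p-values of the landmark comparison rest only on the spread between replicates 1 and 2, shared across probe sets. Replicate 3 has no spread of its own, and that of replicates 1 and 2 was taken to hold for it. Epithelium was well represented, with 9 of 10 epithelial marker genes above background in 3 of 3 samples (Trp63 20517 ± 2627, Epcam 15995 ± 1357, SD, n = 3). So was mesenchyme with 6 of 6 (Col3a1 62804 ± 3772). Of all genes, 60.5% were above background in 3 of 3 samples. Fewer cells of a type and less RNA per cell cannot be told apart in such samples.

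Of the 48 keratin genes, 20 (41.7%) were above background in 3 of 3 samples, beside 60.5% of all genes. Another 5 were above it in 1 or 2 samples and 23 in none. Without replicate 3, 22 were above background in both remaining samples, the 2 added being the hair keratins Krt36 and Krt84, beside 62.2% of all genes. The basal and simple keratins were nearly complete, with 3 of 3 and 4 of 5 above background, whereas the keratins of the inner root sheath of the hair follicle had 0 of 7. Between them stood the keratins of stress and appendages with 5 of 7, the suprabasal and differentiation keratins with 4 of 10 and the hair cortex and cuticle keratins with 3 of 12. The plot of all keratin signals shows these classes.

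**Figure D1:**
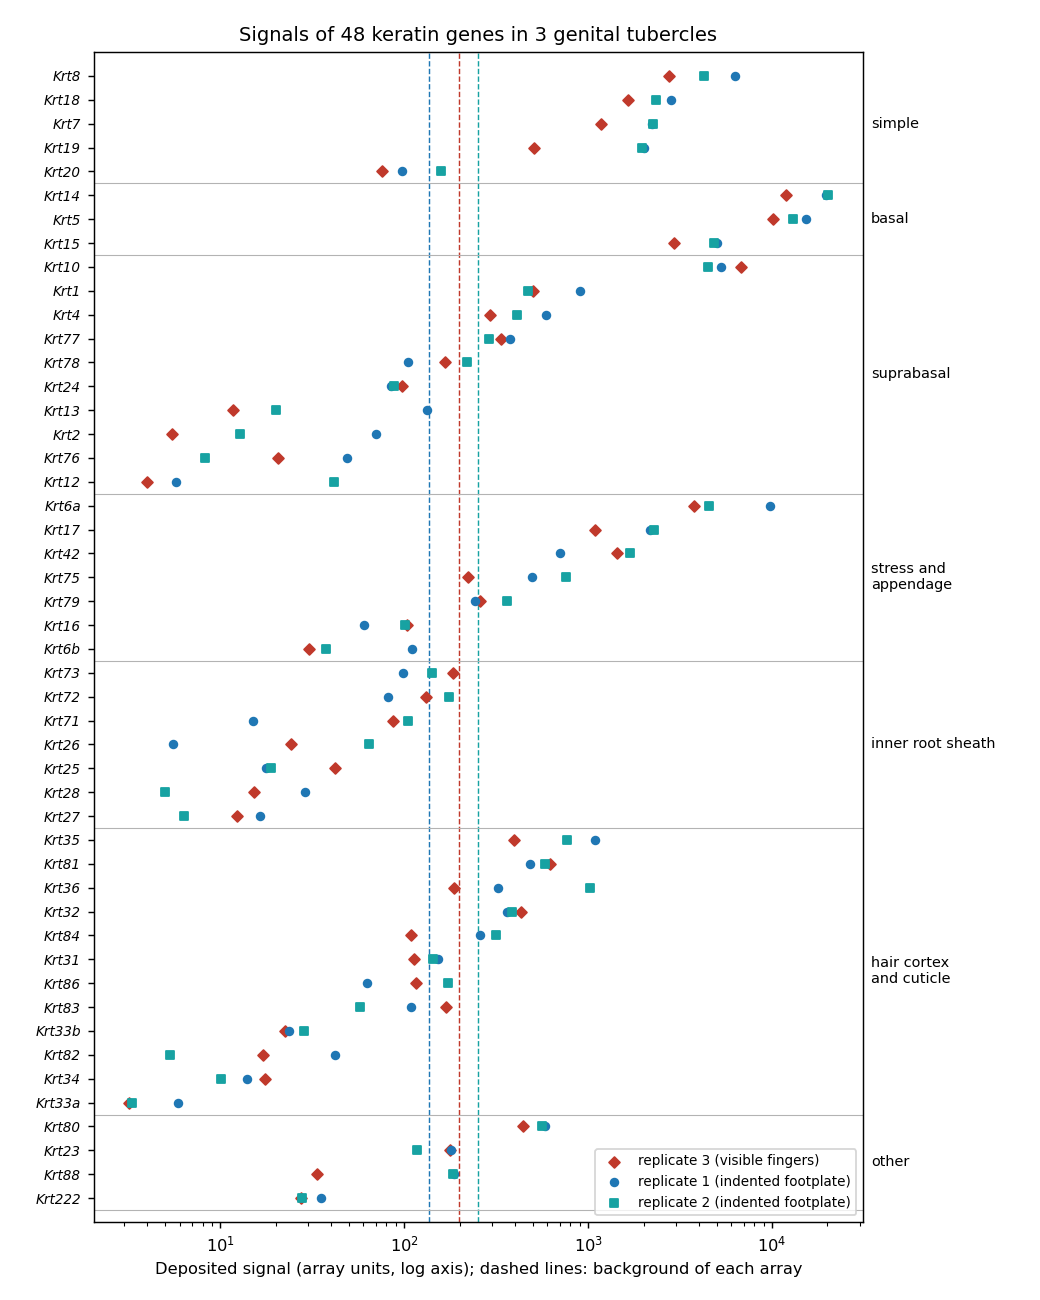
Deposited signal (horizontal, log axis) of the brightest probe set of each of 48 keratin genes, by class and by mean within a class, with 1 point per sample and a dashed line at each sample's background. Krt14 and Krt5 lie furthest right, and all 7 inner root sheath keratins lie at or left of the lines.

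By mean signal the order of the 20 genes ran Krt14, Krt5, Krt6a, Krt10, Krt8, Krt15, Krt18, Krt7, Krt17, Krt19, Krt42, Krt35, Krt1, Krt81, Krt80, Krt75, Krt4, Krt32, Krt77 and Krt79. This is an order of signals: probe sets respond differently to the same amount of RNA, so it does not rank transcripts. Of the 19 neighbouring pairs in that order, 5 kept the same order on 3 of 3 arrays, and in 2 of them the ranges did not overlap, Krt5 above Krt6a and Krt15 above Krt18. The other 3 that kept their order, Krt14 above Krt5, Krt18 above Krt7 and Krt17 above Krt19, had overlapping ranges. The remaining neighbours had overlapping ranges and changed places on at least 1 array.

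The basal keratins Krt14 and Krt5 gave the brightest keratin signals by mean, while Krt15, the other basal gene, followed Krt6a, Krt10 and Krt8. Krt14, the type I keratin of basal cells, had 11895 in replicate 3, against 19672 and 20186.5 in replicates 1 and 2, with a mean of 17251 ± 4646 (SD, n = 3). That placed it at percentile 95.5 of all probe sets in replicate 3, against 97.5 and 97.9 in replicates 1 and 2. Its type II partner Krt5 had 10119 in replicate 3, against 15308 and 13056 in replicates 1 and 2. Krt15, a further type I keratin of basal cells and of the hair follicle bulge, had 2943 in replicate 3, against 5022 and 4811. For all 3 basal genes, on the brightest probe set, replicate 3 was the lowest sample. After alignment, replicate 3 was below both others in 30.4% of all genes above background in 3 of 3 samples. The other Krt14 probe sets disagreed with each other: one read 5127, against 10239 and 11950.0 in replicates 1 and 2, while a dimmer one read 420.1, against 412 and 377, and was level across the samples. The probe set with the brightest Krt14 signal is of the kind named _x_at, whose probes can also bind related transcripts.

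Among the simple keratins, Krt8, the type II keratin of the first embryonic epithelia, had 2734 in replicate 3, against 6311 and 4267 in replicates 1 and 2. Krt18, with which it forms filaments, had 1653, against 2808 and 2336. Krt7, a type II keratin of ducts, urothelium and other lining epithelia, had 1177, against 2212 and 2256. Each of these genes was lowest in replicate 3, and the 3 probe sets of Krt8 gave like differences. Krt19, a type I keratin without the usual tail domain that is made in simple epithelia and in some basal and fetal surface cells, had 509.95 in replicate 3, against 2003 and 1958 in replicates 1 and 2. Its 2 indented-footplate samples lay close together, far above replicate 3. Krt20, of gut and superficial urothelial cells, was below background in every sample (76.0, against 97.2 and 158).

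Simple keratins are also made by liver, hindgut and urothelial cells, and markers of these were measured. Of 6 liver genes, 4 (66.7%) passed background in every sample, beside 60.5% of all genes. The signals of all 6 summed to 9136 in replicate 3, against 112475 in replicate 1 and 52054 in replicate 2. Alb alone had 1400, against 42766 and 9061, and Apoa1 and Fgb read 14.9 and 8.49 in replicate 3, below background. Krt8 and Krt18 ran in the same order of samples as these sums, lowest in replicate 3 and highest in replicate 1. So did Krt4, Krt5, Krt6a, Krt15, Krt19, Krt35 and Krt80, making 9 of the 20 keratins above background in 3 of 3 samples (45%), beside 19.1% of all such genes. The part of liver RNA in these signals was not tested. Of 5 hindgut genes, 0 passed background in every sample, with summed signals of 483, against 433 and 519.8, and Cdx1 and Cdx2 were below background in each sample. Urothelial genes had 2 of 4 (50%), beside that 60.5% of all genes, with sums over all 4 of 2005, against 4101 and 3282. Upk1b read 1081, against 3375 and 2184. Upk3a was below background throughout, and the part of urothelium was not tested.

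Among the suprabasal and differentiation keratins, Krt10 stood out in level and in order. This type I keratin of the first cells above the basal layer had 6806 in replicate 3, against 5242 and 4506 in replicates 1 and 2, so that replicate 3 was the highest sample. Krt1, its type II partner, had 503, against 901 and 469, and replicate 3 lay between the others. Krt77, a close relative of Krt1, had 336, against 373 and 290.1. Krt4, the type II keratin of internal stratified epithelia such as the oesophagus, had 292, against 588 and 413. Its usual type I partner Krt13 was below background in every sample on all 3 of its probe sets, at 11.7, against 133 and 20.1 on the brightest. Krt2, Krt12, Krt24, Krt76 and Krt78, keratins of late epidermis, cornea, palate and other differentiated epithelia, were below background too, with signals between 3.99 and 219. Of 9 genes of the cornified cell layer, 5 (55.6%) were above background in 3 of 3 samples, beside 60.5% of all genes. The signals of all 9 summed to 4944, against 8512 and 7097. Loricrin (Lor) read 1842, against 3846 and 2538, while Flg and Ivl were below background in every sample.

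Keratins of stress and appendages included some of the brighter signals. Krt6a, a type II keratin of hair follicle companion cells, oral epithelium and wound edges, had 3764 in replicate 3, against 9689 and 4566 in replicates 1 and 2. Krt17, a type I keratin of appendage buds and fetal surface epithelium, had 1091, against 2174 and 2269.5. Krt75, of the companion layer of the follicle, had 223, against 495 and 761. Replicate 3 was lowest for each of the 3, and for Krt75 it lay just above its background. Krt42, a type I relative of Krt17, was lowest in replicate 1 instead, with 1438 in replicate 3, against 701 and 1688. It also was measured on an _x_at probe set, and its other probe set was above background in replicate 1 alone (192, against 151 and 161). Krt79, found in the upper hair follicle, had 258, against 243 and 361, near background throughout. Krt16 and Krt6b were below background in every sample. Krt6a too had a dimmer _x_at probe set above background only in replicates 1 and 2 (157, against 644 and 341). Its signal in replicate 3 was at least 2.33-fold below the log2 mean of replicates 1 and 2. This bound exists only because the probe set passed background in replicates 1 and 2 alone, so no conclusion is drawn from it. A second Krt17 probe set was below background in every sample (16.4, against 94.3 and 76.0). Further periderm markers split, Gabrp reading 2674, against 1821 and 2727, and Sfn lying below background in every sample.

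Hair keratins were few and dim. Krt35, one of the earliest keratins of the hair-forming matrix, had 394 in replicate 3, against 1092 and 762 in replicates 1 and 2. Krt81, of the hair cortex, had 623, against 480.3 and 579.6, and Krt32, of the hair cuticle, had 429.9, against 364 and 385. Replicate 3 was the lowest sample for Krt35 and the highest for the other two. Krt81 has closely similar neighbours, Krt86 and Krt83, whose probe sets were below background in every sample, and how far its probe set tells them apart was not tested. Krt36 had 187 in replicate 3, below background, against 325 and 1019.7. Its signal there was at least 2.86-fold below the log2 mean of replicates 1 and 2. These lay far apart, and the bound does not hold for replicate 1 alone. Krt84 had 109, below background, against 257 and 317, at least 1.42-fold below their log2 mean. Krt36 and Krt84 have such a bound only because they passed background in replicates 1 and 2 and not in replicate 3. That entry favours a lower value in replicate 3, so no conclusion is drawn from either bound. Krt31 was above background in replicate 1 alone (113, against 153 and 143), and Krt33a, Krt33b, Krt34 and Krt82 were below it in every sample, as were all inner root sheath keratins measured (Krt25, Krt26, Krt27, Krt28, Krt71, Krt72 and Krt73), with signals between 5.01 and 183. Of the remaining keratins, Krt80, made in many epithelia, had 444, against 584 and 561. Krt23 (176, against 180.2 and 117) and Krt88 (33.6, against 185 and 184) were above background in replicate 1 alone, and Krt222 in no sample.

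The proteins that give hair its sulphur-rich matrix, the keratin-associated proteins, were set beside the hair keratins. Of 38 such genes 3 (7.89%) were above background in 3 of 3 samples, beside 60.5% of all genes, and 4 more in 1 or 2. Krtap12-1 read 774, against 535 and 680.4, Krtap10-4 680.4, against 414 and 628, and Krtap26-1 353, against 179 and 409. The 4 in fewer samples were Krtap17-1 (203, against 176 and 156), Krtap5-1 (142, against 142 and 141), Krtap19-1 (59.2, against 138 and 218) and Krtap11-1 (30.6, against 147 and 12.5).

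In the mouse genome keratin genes lie in a type I cluster of 27 genes on chromosome 11 and in a type II cluster on chromosome 15, where 27 genes include the type I gene Krt18 at its end (RefSeq, GRCm38.p6). Of the genes on chromosome 11, 8 were above background in 3 of 3 samples, 3 in 1 or 2 and 13 in none, and Krt9, Krt39 and Krt40 were not analysed here. On chromosome 15 the numbers were 12, 2 and 10, with Krt74, Krt87 and Krt90 not analysed here. Of all genes, 60.5% were above background in 3 of 3 samples and 12.8% in 1 or 2. Signals did not run in 1 block. Krt10 was above background with all 6 genes on one side of it (Krt28 to Krt222) and its neighbours Krt12 and Krt20 on the other side below. Krt15, Krt19, Krt14, Krt17 and Krt42 lie at the end of the chromosome 11 cluster, with Krt16 below background among them. On chromosome 15, Krt6a and Krt5 are neighbours, as are Krt8 and Krt18.

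**Figure D2:**
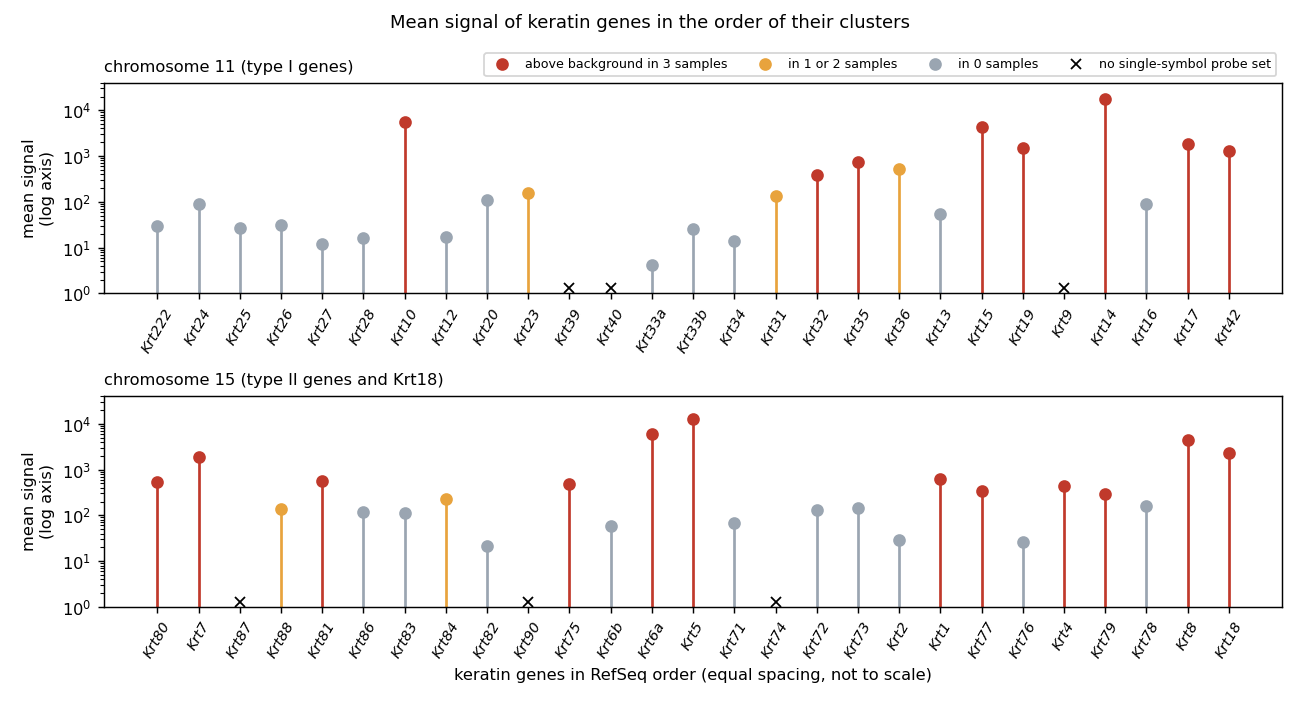
Mean signal over 3 samples (vertical, log axis) of keratin genes in their order along chromosomes 11 and 15, equally spaced. Red genes were above background in 3 samples, orange in 1 or 2 and grey in none, and crosses mark genes not analysed here. Red genes are interspersed with grey ones, and Krt14 and Krt5 are the highest in their clusters.

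To set these signals beside the sequence in front of each gene, the 60 bases upstream of the annotated start are shown for 9 keratins, from RefSeq (GRCm38.p6), 5′ to 3′ on the gene's strand. The capitals mark ATAAA, the core of a TATA-like element, within 45 bases of the start. The set covers keratins above background in 3 of 3 samples (Krt5, Krt75, Krt10, Krt7, Krt8 and Krt18) and keratins below it in every sample (Krt25, Krt71 and Krt13).
Krt5, chr15:101712906-101712965, minus strand: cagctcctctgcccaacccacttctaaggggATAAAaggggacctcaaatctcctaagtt
Krt75, chr15:101573905-101573964, minus strand: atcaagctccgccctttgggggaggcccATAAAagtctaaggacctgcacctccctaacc
Krt10, chr11:99389365-99389424, minus strand: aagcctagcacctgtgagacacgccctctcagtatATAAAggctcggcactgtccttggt
Krt7, chr15:101412343-101412402, plus strand: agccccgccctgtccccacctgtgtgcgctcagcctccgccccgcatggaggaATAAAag
Krt8, chr15:102004343-102004402, minus strand: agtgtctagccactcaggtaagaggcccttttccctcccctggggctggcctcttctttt
Krt18, chr15:102028156-102028215, plus strand: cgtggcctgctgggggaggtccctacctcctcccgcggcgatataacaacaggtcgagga
Krt25, chr11:99322952-99323011, minus strand: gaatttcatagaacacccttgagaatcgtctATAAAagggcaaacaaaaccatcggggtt
Krt71, chr15:101743098-101743157, minus strand: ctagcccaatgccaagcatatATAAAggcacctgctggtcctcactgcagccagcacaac
Krt13, chr11:100121567-100121626, minus strand: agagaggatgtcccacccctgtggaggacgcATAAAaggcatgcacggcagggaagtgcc

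Among these, ATAAA began 29 bases before the start in Krt5, Krt25 and Krt13, and 25, 32 and 39 bases before it in Krt10, Krt75 and Krt71. Krt8 and Krt18, the simple pair, had no ATAAA in that window, and Krt7 had one only 7 bases before its annotated start. The window of Krt18 does hold TATAAC, which a search for ATAAA cannot match. The absence therefore depends on the letters chosen. Of the 48 keratins 32 had an upstream sequence in the table. ATAAA on the gene's strand within 45 bases was found in 21 of these 32, beside 6.08% of 32851 upstream sequences. It was found in 5 of the 11 that were above background in 3 of 3 samples and in 16 of the other 21. GGGCGG on either strand within 250 bases, the core of a GC box, was found in 2 of the 11 (Krt7 and Krt75) and 0 of the 21, beside 32.7% of all upstream sequences. GCCNNNGGC, an AP-2 site, was found in 3 of the 11 (Krt7, Krt18 and Krt42) and 0 of the 21, beside 13.7%. These are matches of letters, and none was tested as a site. The window of Krt14, counted among the 11, lies inside its annotated gene and is not shown.

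The landmark contrast set replicate 3 against the mean of replicates 1 and 2 for each probe set, on log2 signals aligned between samples. Of the 20 keratins above background in 3 of 3 samples, replicate 3 was below both others in 14 (70%), beside 30.4% of all genes above background in 3 of 3. Krt79 is among the 14 only after alignment, since its deposited signal in replicate 3 lay above that of replicate 1. Replicate 3 was above both in 3, namely Krt10, Krt32 and Krt81, beside 25.3%, and between them in 3, namely Krt1, Krt42 and Krt77. Over 2-fold lower values in replicate 3 were found in 3 keratins, beside 2.19% of genes, and over 2-fold higher values in 0, beside 1.81%. Set against replicate 1 alone, 7 keratins were over 2-fold lower, beside 4.64% of genes, and set against replicate 2 alone 2 were, beside 2.63%. The 3 keratins lower against the mean of both were Krt19 (log2 difference -1.93 ± 0.61, limma SE), Krt75 (-1.43 ± 0.62) and Krt35 (-1.19 ± 0.68). Krt17 was next at -0.999 ± 0.60, then Krt8 and Krt7 at -0.90 each. Krt10 had 0.51 ± 0.63 and Krt14 -0.72 ± 0.60.

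None of these differences passed the test. At a Benjamini-Hochberg adjusted p under 0.05 limma called 0 of 33 keratin probe sets fitted, beside 0% of 29065, and the adjusted p was 1 for every keratin. At an unadjusted p under 0.05 it counted 2 keratin probe sets, those of Krt19 and Krt88, both lower in replicate 3, beside 1.39% of all probe sets in that direction. Of these, only Krt19 was above background in 3 of 3 samples. Krt88 (33.6 in replicate 3, against 185 and 184) was fitted only because it passed background in replicate 1. Such an entry favours a lower value in replicate 3, so no conclusion is drawn from Krt88. The fit has 1 residual degree of freedom, and in simulated data of this design it called 0 of 70 probe sets changed by 64-fold. The simulated noise used each probe set's SD over all 3 samples, so any difference of replicate 3 was counted as noise. That noise can exceed the spread between replicates 1 and 2 on which the fit rests. Over the 20 keratins the median log2 difference was -0.66, beside -0.009 over the 11006 genes above background in 3 of 3 samples. It was -0.35 against replicate 2 alone and -0.86 against replicate 1 alone, so its size depended on which sample replicate 3 was set against.

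**Figure D3:**
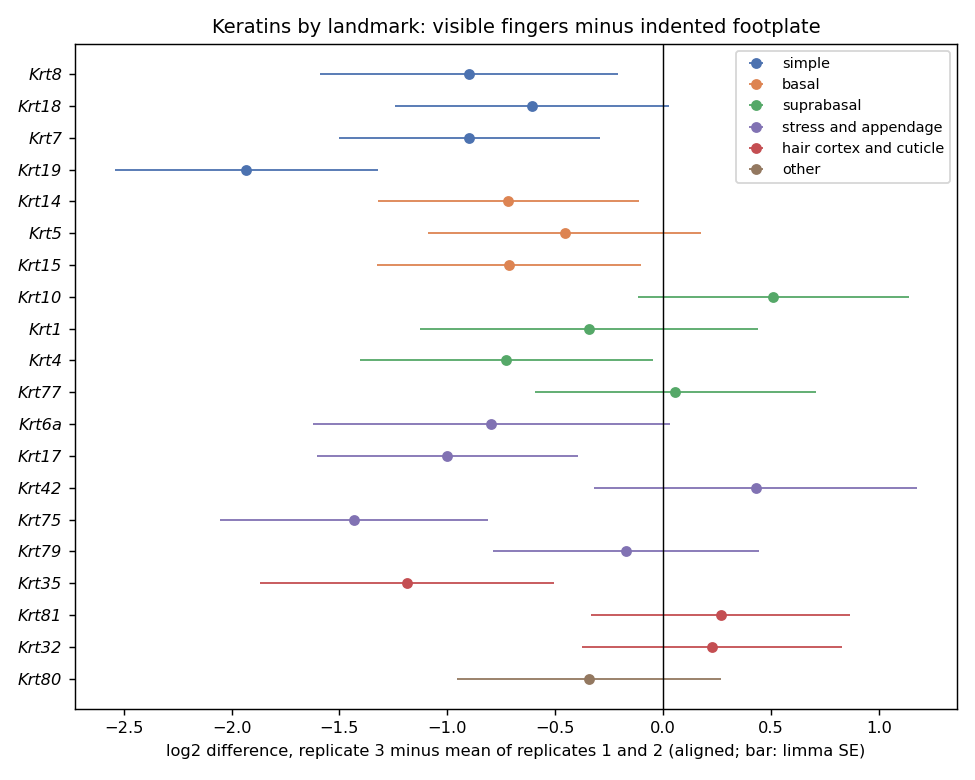
Log2 difference of replicate 3 from the mean of replicates 1 and 2 (horizontal; bars show the limma SE) for the 20 keratins above background in 3 of 3 samples, grouped by class. Most points lie left of 0, with Krt19 lowest at -1.93 and Krt10 highest at 0.51, and no difference passed the adjusted threshold.

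By class the median log2 difference was -0.90 over the 4 simple keratins (all 4 lower than both other samples), -0.71 over the 3 basal ones (3 of 3), -0.80 over the 5 of stress and appendages (4 of 5), -0.14 over the 4 suprabasal ones (1 of 4) and 0.23 over the 3 hair keratins (1 of 3). Against replicate 2 alone the suprabasal median was 0.30 and that of stress and appendages -0.34, and against replicate 1 alone they were -0.58 and -1.08, so the sign of the suprabasal one depended on the sample compared. These class medians and counts rest on few genes and were not tested against each other. Of all genes above background in 3 of 3 samples, 30.4% had replicate 3 below both others. General epithelial markers had a median of -0.32 over 9 genes, of which 5 were below both other samples. The signals of all 10 markers summed to 54389 in replicate 3, against 67784 and 57862. Trp63 and Epcam had differences of -0.11 and -0.03, and the 9 genes ran from -0.86 (Esrp2) to 0.31 (Cldn6). The 5 cornified layer genes above background had a median of -0.66, and mesenchymal genes one of 0.13 with sums of 227061, against 214120 and 216816. The part of the amount of epithelium in the keratin differences was not tested.

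Among embryos the 20 keratins had a median SD of 0.48 on the aligned log2 scale, beside 0.33 for all genes above background in 3 of 3 samples. It was 0.25 without replicate 1 and 0.30 without replicate 3, against 0.63 without replicate 2. The lowest SDs among the 20 were those of Krt32 (0.15), Krt81 (0.16) and Krt79 (0.20), and the highest those of Krt19 (1.12), Krt75 (0.85) and Krt6a (0.80).

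Since keratins act in pairs, the log2 signal of the type II gene minus that of its type I partner was followed across samples. The level of such a difference depends on the probe sets, so only its movement is read. Krt5 minus Krt14 was -0.23 in replicate 3, against -0.36 and -0.63 in replicates 1 and 2, and Krt5 minus Krt15 was 1.78, against 1.61 and 1.44. Krt8 minus Krt18 was 0.73, against 1.17 and 0.87. These 3 pairs had SDs of 0.20, 0.17 and 0.23 (n = 3). The narrow spread of Krt5 minus Krt14 held on the brightest Krt14 probe set alone: on the next it was 0.98 in replicate 3, against 0.58 and 0.13 in replicates 1 and 2 (SD 0.43), and on the dimmest 4.59, against 5.22 and 5.12 (SD 0.34). Pairs with Krt19 moved more: Krt7 minus Krt19 was 1.21, against 0.14 and 0.21, and Krt8 minus Krt19 was 2.42, against 1.66 and 1.12. Krt1 minus Krt10 was -3.76, against -2.54 and -3.26, and Krt6a minus Krt17 was 1.79, against 2.16 and 1.01. Krt4 and Krt6a had partners, Krt13 and Krt16, below background in every sample, so their differences are no measure of a pair.

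**Figure D4:**
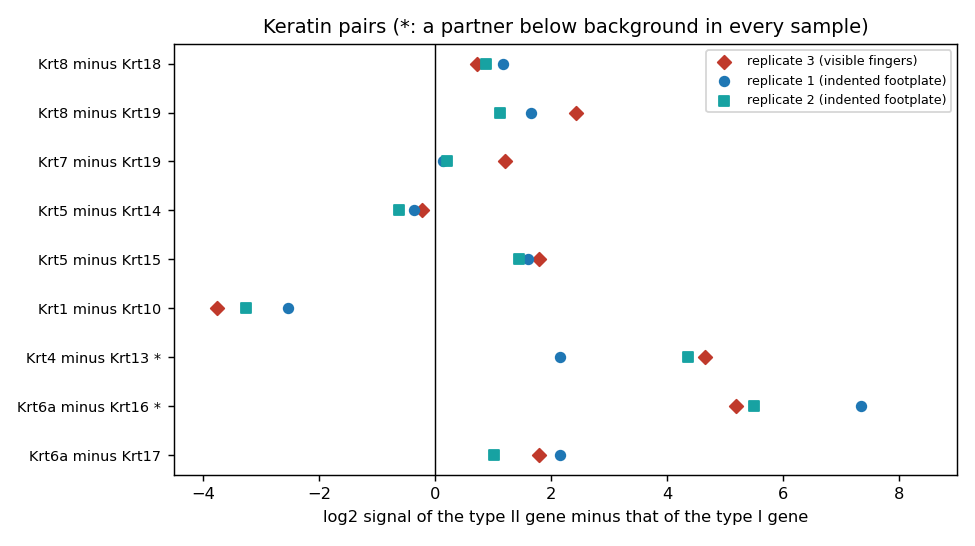
Log2 signal of a type II keratin minus that of its type I partner (horizontal) for 9 pairs, on the brightest probe set of each gene, 1 point per sample. The points of Krt5 with Krt14, Krt5 with Krt15 and Krt8 with Krt18 lie close together, while replicate 3 lies apart in both pairs with Krt19. A star marks a pair with a partner below background in every sample.

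Partners of keratin filaments were measured in the same samples. Of 17 desmosome and plakin genes, whose products anchor keratins at cell junctions, 16 (94.1%) were above background in 3 of 3 samples. Of all genes 60.5% were. The brightest were the linker Dsp (33157, against 35497 and 38684), Perp (18323, against 22340.0 and 17385), the cadherin Dsg2 (12851, against 14767 and 16177) and the plakophilin Pkp1 (7258, against 16207 and 12679). Among all genes above background in 3 of 3 samples, replicate 3 was below both others in 30.4%. The 16 had a median log2 difference of -0.19. Replicate 3 was below both others in 8 of them (50%) and above both in 1, Dsg1a (659, against 177 and 428). None of them was called by limma, and Dsc1 was below background in every sample. Of 15 transcriptional regulators known from epithelia, 12 (80%) were above background in 3 of 3 samples, beside 60.5% of all genes. The 12 had a median of -0.23. Trp63 (19204, against 23542 and 18806), Klf4 (20707, against 15530 and 10842), Tfap2a (11078, against 20063 and 15408) and Lef1 (10339, against 12468 and 12259) were the brightest. Replicate 3 was below both others in 7 of the 12 (58.3%), beside that 30.4% of all genes. It was above both in 1, Klf4. Ovol1 (188, against 395 and 377), Cebpa (313, against 260.2 and 249) and Foxn1 (145, against 150.1 and 130) were above background in 1 or 2 samples.

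Of 15 intermediate filament genes outside the keratins, 8 (53.3%) passed background in every sample, beside 60.5% of all genes. The median log2 difference of the 8 was -0.05. Vim, the filament of mesenchyme, had 43825 in replicate 3, against 57669 and 40592 in replicates 1 and 2, followed by the lamins Lmnb1 (5355, against 5682 and 5472), Lmna (5148, against 5589 and 3074) and Lmnb2 (1421, against 1905 and 1794). Nefm (441, against 240.3 and 135), Gfap (253, against 193 and 225), Synm (206, against 146 and 121) and Ina (93.6, against 176 and 98.9) were above background in 1 or 2 samples.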

How the data were processed

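Each array gave 1 linear signal intensity per probe set, deposited by the authors from GCOS, which the submitters' processing notes name. Its version and algorithm were not given in the sources used here. The mean after trimming 2% at each end was 1500.0 in every column, so the deposited intensities had been globally scaled. Per the labels, RNA was amplified in 2 rounds.

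Of 45101 probe sets 64 controls were left out. Symbols came from the platform annotation: 34945 probe sets had 1 symbol, 932 several and 9160 none. All 61 keratin probe sets matched a RefSeq gene. Signals below 1 were set to 1, log2 transformed and aligned on the median of probe sets above background in 3 of 3 samples, since sample medians differed by 0.23 on that scale. Signals are printed as deposited. A fold with the dimmer side below background is a lower bound against that background or the signal, whichever is higher. Its brighter side is the mean of replicates 1 and 2 on the aligned log2 scale. Bounds were computed only where replicate 3 was the dimmer side, so none could point the other way. The landmark contrast used limma 3.58.1 (R 4.3.3; lmFit and eBayes, two-sided, Benjamini-Hochberg) over the 29065 probe sets that passed background in 1 sample or more, with the spread of the single visible-fingers sample taken to equal that of the others. It was tested on simulated data. Keratins above background in 3 of 3 samples are given with all signals, as are those in 1 or 2 samples, and the others by range, and further probe sets of a keratin where they fell on the other side of background (other probe sets, and further marker genes, were chosen after their values were seen). Of the lists of partner genes, the 4 brightest (3 for keratin-associated proteins, where only 3 were above background throughout) and those in 1 or 2 samples are named. Upstream sequences are from the RefSeq table (GRCm38.p6). The members, lists and motifs were chosen with earlier results of these data known, the motifs also with the sequences in view.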

Additional observations from a re-analysis of the deposited data

Results flagged for a closer look

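The 1 probe set annotated to both Krt14 and Krt17 entered no comparison because it has several symbols, and it carried signal above background in some samples. It read 204.84 in replicate 3, above the background of 197.5, against 150.4 in replicate 1, above 135.8, and 185 in replicate 2, below 253.1.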

How the results depend on the processing

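The count of keratins above background ran from 17 (dimmest probe set per gene) to 22 (without replicate 3), against 20. With the dimmest probe set the stress and appendage class had 2 genes in place of 5, and without replicate 3 the hair class had 5 in place of 3; no other class count moved by over 1.5 times. The count of 14 keratins with replicate 3 below both others was 13 or 14 under 5 other alignments and floors, chosen after seeing the data. The median landmark difference was between -0.75 and -0.64 under the alignments and floors tried. The median SD was 0.25 to 0.63 when 1 replicate was left out. In place of 0 calls (604 at an unadjusted p under 0.05), limma called 86 probe sets when arrays were aligned by the median over every probe set, and 1 with only probe sets above background in 3 of 3 samples, none of them keratins. The landmark differences of 3 keratins changed sign. With 1 replicate left out, Krt42 lay between -0.091 (without replicate 1) and 0.949, Krt1 between -0.927 and 0.241 (without replicate 1) and Krt77 between -0.239 (without replicate 2) and 0.352. Krt77 was also -0.029 with the alignment over every probe set. Likewise the suprabasal class median lay between -0.583 (without replicate 2) and 0.297 (without replicate 1), against -0.14, and the count of keratins over 2-fold lower was between 2 and 7, against 3. The mean of Krt5 minus Krt14 was 0.563 and 4.974 on the other Krt14 probe sets, against -0.41. These last 3 alternatives were chosen after seeing the data. The cause was not tested, and contrasts of 2 samples have no residual degrees of freedom. No paired analysis was possible because the samples form 1 group.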
